A study of Mus musculus with 9 samples.

Results

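Astrocyte identity and maturation genes were followed in the hippocampus of 11-day-old mice that lacked Slc38a3 in endothelial cells. The set was a list of 35 canonical astrocyte genes, matched by gene name and required to average 10 or more normalized counts over the 9 libraries. All 35 met that rule, as did 17036 of the 57180 genes in the table. The tested animals (cKO) carried a knockout of Slc38a3 selective for endothelial cells and numbered 4, 3 males and 1 female. The wild-type animals (WT) numbered 5, 1 male and 4 females. All were labelled strain C57BL6 and aged 11 days. The sources used here do not name the Cre driver, the deleted exons or whether WT animals carried the Cre or a floxed allele. Whole hippocampus was sequenced, so fewer cells of a type and less RNA per cell cannot be told apart in any value below.

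Astrocytes are the glial cells that clear glutamate and potassium from around synapses, store glycogen, supply lipids and wrap blood vessels with their endfeet. Their fate is set by transcription factors of the Sox and nuclear factor I families and by Notch signalling. In the rodent hippocampus they proliferate and mature during the first postnatal weeks. Slc38a3 encodes SNAT3, a sodium-coupled transporter of glutamine, histidine and asparagine, which in brain is made by astrocytes as well as by endothelial cells.

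Values are normalized counts, each a number of reads scaled by the size factor of its library. They compare libraries and not genes of different length. Depth was 32096409 to 34034530 recovered reads in cKO and 30803135 to 33134405 in WT. The lowest member, Cyp4f15, had 65 to 103 reads per library and the highest, Sparcl1, 43300 to 49441. The deleted gene Slc38a3 was at 308 to 405 normalized counts in cKO and 1804 to 3514 in WT, with WT replicates 2 and 5 (2033 and 1804) below the other 3 WT libraries. Markers of neurons, oligodendrocyte lineage cells, microglia, endothelial cells and mural cells were all detected, with no matched marker at 0. Summed choroid plexus markers ranged from 760 to 33756 in cKO and from 744 to 44724 in WT, and summed meningeal markers from 8143 to 10095 in cKO and from 5756 to 9676 in WT. cKO replicate 2, the only cKO female, stood apart for these astrocyte genes, and genotype results that rest on it are given with and without it. With sex as a term, leaving it out compares the 3 cKO males with the single WT male, WT replicate 1, since the 4 WT females then carry no weight in the fold change. Leaving out WT replicate 1 in the same way compares cKO replicate 2 alone with the 4 WT females. Values without cKO replicate 2 are therefore also given, for results that turn on it, as the 3 cKO males against all 5 WT libraries with no sex term, an alternative chosen after seeing the data in which sex and genotype cannot be told apart.

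Of the 35 members, 1 rose in cKO (Ndrg2), 1 fell (Daam2) and 33 did not pass (limma-trend with sex as a term, Benjamini-Hochberg adjusted p under 0.05 over all genes tested). Over all genes tested 0.346% passed, 0.123% higher and 0.223% lower. The 2 members that passed are the only 2 in the cytoplasmic signalling role, and the lists were chosen with earlier results of these data known. None of the 5 transcription factors, the 8 receptors and membrane proteins, the 11 metabolic enzymes and lipid binders, the 3 metallothioneins or the 6 secreted proteins passed. The log2 fold changes of the 35 members, cKO over WT, ran from -0.39 to 0.72 with a median of 0.05, against a median of -0.0034 over all genes tested. In 20 members the 95% interval of the change lay within 1.2-fold either way, as it did for 48.7% of all genes tested.

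**Figure D1:**
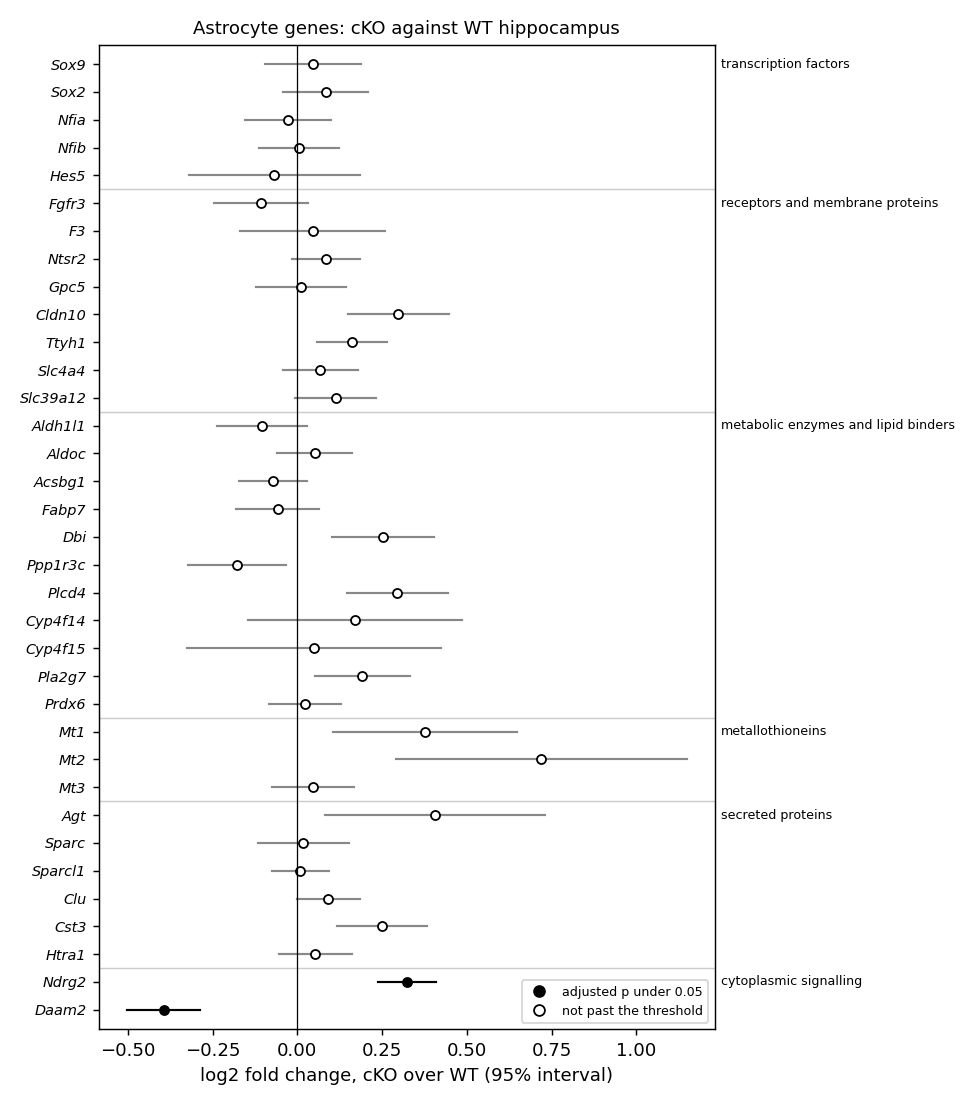
Log2 fold change of each of the 35 astrocyte genes (dots) with its 95% interval (lines), cKO over WT with sex as a term, grouped by the role of the protein. Ndrg2 at 0.32 and Daam2 at -0.39 are the filled dots, and the widest interval belongs to Mt2.

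Ndrg2 (ENSMUSG00000004558, chromosome 14, 52142727 to 52151615 in GRCm39) encodes a cytoplasmic protein of the N-myc downstream regulated family that in adult brain is made mainly by astrocytes. The cKO libraries held 14405, 16466, 14190 and 14766 normalized counts (replicates 1 to 4), against 12124, 12449, 12691, 12611 and 12488 in the WT libraries (replicates 1 to 5). All 4 cKO libraries lay above all 5 WT libraries, and cKO replicate 2 lay highest. The means were 14957 ± 1034 in cKO and 12473 ± 217 in WT (SD, n = 4 and n = 5). Ndrg2 rose 1.252-fold (log2 fold change 0.32 ± 0.0399, SE, limma adjusted p = 0.00370). In an exact two-sided permutation test over the 9 libraries, without a sex term, p was 0.00794. That is the smallest p this design allows, and Ndrg2 shared it with Daam2 and with Ttyh1 and Ppp1r3c, which did not pass with limma. In the 3 cKO males against the single WT male the log2 fold change was 0.25 and the call was lost (limma adjusted p = 0.113). In the 3 cKO males against all 5 WT libraries, with no sex term, it was 0.21 ± 0.0315 and passed (limma adjusted p = 0.00434).

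Daam2 (ENSMUSG00000040260, chromosome 17, 49763049 to 49871371) encodes a formin of the Wnt pathway that acts on the actin cytoskeleton and, in glial precursors of the mouse, restrains differentiation. It was at 2162, 2090, 2020 and 2234 normalized counts in the cKO libraries, against 2761, 2745, 2769, 2696 and 2960 in the WT libraries. The groups did not overlap, and WT replicate 5 lay above the other 4 WT libraries. Daam2 averaged 2126 ± 92.0 in cKO and 2786 ± 101 in WT (SD, n = 4 and n = 5). It fell 1.31-fold (log2 fold change -0.39 ± 0.0501, limma adjusted p = 0.00374), with an exact permutation p of 0.00794. In the 3 cKO males against the single WT male the log2 fold change was -0.37 ± 0.0721 and the call was lost (limma adjusted p = 0.109). In the 3 cKO males against all 5 WT libraries, with no sex term, it was -0.38 ± 0.0438 and passed (limma adjusted p = 0.000800).

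Each sex taken alone has 1 animal in an arm and repeats the fold changes with the other sex's lone library left out. In females, where cKO replicate 2 is the whole cKO arm, the difference from the 4 WT animals was 0.39 for Ndrg2 and -0.42 for Daam2 on the log2 scale. The interaction of sex and genotype was -0.14 ± 0.0696 for Ndrg2 (limma adjusted p = 0.636) and 0.05 ± 0.101 for Daam2 (limma adjusted p = 0.924).

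**Figure D2:**
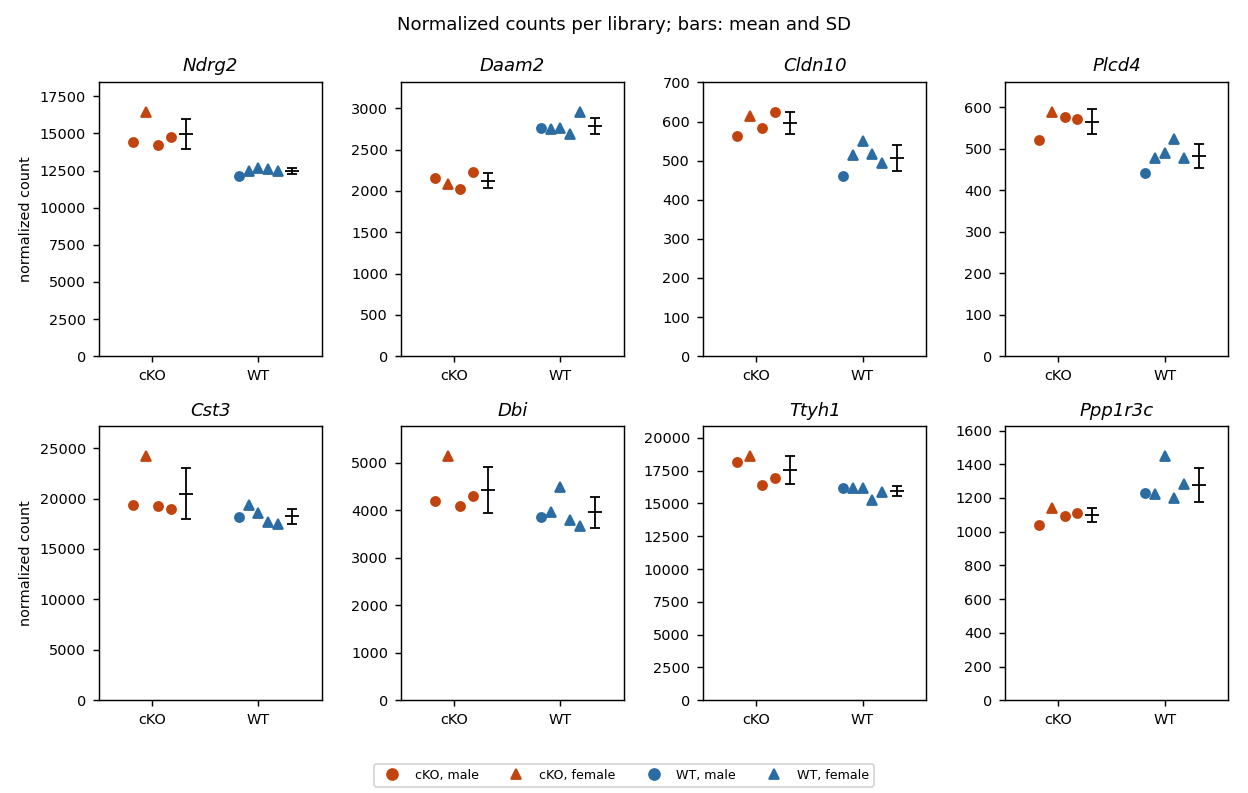
Normalized counts of 8 astrocyte genes in each library (circles, males; triangles, females), with the mean and SD of each group as bars, cKO left of WT. The groups are separate for Ndrg2, Daam2, Cldn10, Ttyh1 and Ppp1r3c and overlap for Plcd4, Cst3 and Dbi, where the highest cKO point is replicate 2.

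The transcription factors that specify and maintain astrocytes showed no change that passed. Sox9, which drives the switch to gliogenesis, was at 1138, 1169, 1288 and 1314 normalized counts in cKO and at 1233, 1077, 1040, 1176 and 1145 in WT. Sox2, a factor of neural stem cells that astrocytes keep, was at 1577, 1688, 1628 and 1746 in cKO and at 1652, 1455, 1493, 1472 and 1609 in WT. Nfia, which acts with Sox9 at the onset of gliogenesis, was at 3682, 4455, 4133 and 4211 in cKO and at 4378, 4437, 4069, 4203 and 4298 in WT. The groups overlapped for each of these 3 genes. The log2 fold change was 0.05 for Sox9 (95% interval -0.09 to 0.19), 0.08 for Sox2 (-0.04 to 0.21) and -0.03 for Nfia (-0.15 to 0.10). Nfib, the close relative of Nfia, gave 0.0059 (-0.11 to 0.12). Hes5, a repressor induced by Notch, ranged from 406 to 628 in cKO and from 416 to 566.7 in WT, with a log2 fold change of -0.07 (-0.32 to 0.18). With limma 0 of the 5 factors had an unadjusted p under 0.05, and with edgeR and DESeq2 0 passed. In the table the span of Sox2 overlaps that of Sox2ot, and the span of Nfia that of E130114P18Rik. Such overlaps, found for 13 members, are of whole spans with introns, and whether reads were shared was not tested.

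Hes5 was the 1 member for which cKO replicate 2 was the lowest cKO library, at 406 normalized counts, against 556 to 628 in the 3 cKO males. The median log2 fold change of 18 further Notch pathway genes was -0.02. Of these, 0 passed and 1 had an unadjusted limma p under 0.05, beside 0.346% and 11.3% of all genes tested. That gene was the ligand Jag1, at 315 ± 29.4 in cKO and 362 ± 23.9 in WT (SD, n = 4 and n = 5) (log2 fold change -0.31 ± 0.0816, limma adjusted p = 0.168). The receptor Notch1 was at 1709 ± 62.0 in cKO and 1714 ± 194 in WT, and the ligand Dll1 at 370.0 ± 31.3 in cKO and 399 ± 26.4 in WT.

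Among receptors and membrane proteins, 2 of 8 members had groups that did not overlap, both higher in cKO, while 2.58% of all genes tested were separate in that direction. Cldn10, a claudin that forms paracellular ion pores, was at 563, 615, 583 and 625 normalized counts in cKO, against 461, 514, 551, 518 and 495 in WT. The lowest cKO library lay just above the highest WT library. Its log2 fold change was 0.30 ± 0.0690, and it did not pass (limma adjusted p = 0.117). Ttyh1, a membrane protein of the tweety family found in glia and their processes, was at 18181, 18632, 16386 and 16965 in cKO, against 16149, 16214, 16189, 15290 and 15904 in WT. The log2 fold change of Ttyh1 was 0.16 ± 0.0480 (limma adjusted p = 0.223), and without cKO replicate 2 it was 0.09 ± 0.0635 (0.11 ± 0.0388 against all WT libraries with no sex term). Neither gene passed with edgeR. With DESeq2, Cldn10 passed (adjusted p = 0.0426), 1 of 6 members that did, beside 1.38% of all genes that DESeq2 tested. The edgeR test called 0.335% of all genes.

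The other 6 of these genes had groups that overlapped. Fgfr3, the fibroblast growth factor receptor most typical of astrocytes, was at 2941, 3003, 2489 and 2620 normalized counts in cKO and at 3078, 3102, 3165, 2844 and 3074 in WT. Its log2 fold change was -0.11 (95% interval -0.25 to 0.03). F3, tissue factor, the initiator of coagulation, was at 655, 774, 572 and 578 in cKO and at 632, 727, 813, 625 and 627 in WT. Ntsr2, a neurotensin receptor, was at 2264, 2399, 2025 and 2139 in cKO and at 2037, 2210, 2251, 2221 and 2278 in WT. F3 gave a log2 fold change of 0.05 (-0.17 to 0.26) and Ntsr2 of 0.09 (-0.02 to 0.19). The sodium bicarbonate cotransporter gene Slc4a4, the zinc importer gene Slc39a12 and the glypican gene Gpc5 gave 0.07, 0.11 and 0.01, each with an interval that spans 0.

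Ligands, receptors and feedback genes of fibroblast growth factor signalling were read beside Fgfr3. Of 17 such genes, 0 passed and 2 had an unadjusted limma p under 0.05, beside 0.346% and 11.3% of all genes tested. The log2 fold change was below 0 in 13 and above 0 in 4, while 48.8% of all genes tested were above 0. The median of the 17 was -0.06. Spry4, an inhibitor induced by the pathway, was at 695 ± 84.1 normalized counts in cKO and 841 ± 24.9 in WT (SD, n = 4 and n = 5). All 4 cKO libraries of Spry4, at 576 to 755, lay below the WT libraries, at 813 to 873 (log2 fold change -0.28 ± 0.0885, limma adjusted p = 0.252). The receptor Fgfr2 was at 899 ± 80.8 in cKO and 1012 ± 33.3 in WT (limma adjusted p = 0.375). Its span overlaps that of Htra1 in the table.

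Of the 11 metabolic enzymes and lipid binders, 0 passed and 4 had an unadjusted limma p under 0.05, beside 0.346% and 11.3% of all genes tested. The 4 were Plcd4, Dbi and Pla2g7 with values above 0 and Ppp1r3c with a value below 0. Aldh1l1, the folate enzyme widely used to mark astrocytes, was at 1630, 1828, 1627 and 1547 normalized counts in cKO and at 1868, 1856, 1965, 1737 and 1742 in WT. The glycolytic aldolase gene Aldoc was at 10774, 13071, 10604 and 11153 in cKO and at 11319, 11838, 12324, 11318 and 11384 in WT. Acsbg1, which activates long-chain fatty acids, was at 3123, 3378, 3018 and 2931 in cKO and at 3378, 3409, 3369, 3272 and 3367 in WT. In all 3 genes the 3 cKO males lay below every WT library and cKO replicate 2 lay among or above the WT libraries. Their log2 fold changes were -0.11 ± 0.0617, 0.05 ± 0.0514 and -0.07 ± 0.0465, and without cKO replicate 2 they were -0.22, -0.06 and -0.16. Against all 5 WT libraries with no sex term, the 3 cKO males gave -0.19, -0.10 and -0.15, and Acsbg1 then passed (limma adjusted p = 0.0460).

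Plcd4, a phospholipase C that releases inositol trisphosphate, was at 521, 589.5, 578 and 572 normalized counts in cKO and at 442, 477, 489, 524 and 479 in WT. A single WT library, replicate 4, lay above the lowest cKO library. Its log2 fold change was 0.30 ± 0.0695 (limma adjusted p = 0.128, DESeq2 adjusted p = 0.0495), and its span overlaps those of Usp37 and Zfp142 in the table. Dbi, the acyl-CoA binding protein that is also the precursor of a ligand of GABA-A receptors, was at 4186, 5143, 4081 and 4306 in cKO and at 3847, 3961, 4492, 3795 and 3670.1 in WT. The groups overlapped through WT replicate 3, and the log2 fold change was 0.25 ± 0.0701 (limma adjusted p = 0.186, DESeq2 adjusted p = 0.0425). Without cKO replicate 2 that of Dbi was 0.12 ± 0.0898 (0.09 ± 0.0554 against all WT libraries with no sex term), and that of Plcd4 was 0.33 ± 0.102 (0.21 ± 0.0673).

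Ppp1r3c, a subunit that targets protein phosphatase 1 to glycogen, was at 1041, 1141, 1095 and 1111 normalized counts in cKO and at 1231, 1223, 1450.3, 1198 and 1281 in WT. All cKO libraries lay below all WT libraries, as did those of 3.72% of all genes tested. The log2 fold change of Ppp1r3c was -0.18 ± 0.0666 (limma adjusted p = 0.330), and it did not pass with edgeR or DESeq2. Of 18 further glycogen genes, 0 passed and 2 had an unadjusted limma p under 0.05, beside 0.346% and 11.3% of all genes tested. These were Ppp1r3e, another targeting subunit, at 472 ± 23.7 in cKO and 531 ± 38.2 in WT (SD, n = 4 and n = 5), and the phosphorylase kinase subunit gene Phkg1, at 547 ± 50.8 in cKO and 502 ± 41.6 in WT. Ugp2, which makes the sugar donor for glycogen, was at 2672 ± 171 in cKO and 2955 ± 82.1 in WT, with groups that did not overlap (limma adjusted p = 0.452). The median over the glycogen list was 0.02.

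Fabp7, a brain lipid-binding protein of radial glia and young astrocytes, ranged from 6127 to 6981 normalized counts in cKO and from 6449 to 7301 in WT (log2 fold change -0.06, 95% interval -0.18 to 0.07). Pla2g7, which degrades platelet-activating factor, ranged from 3440 to 4665 in cKO and from 3635 to 3885 in WT, and its log2 fold change of 0.19 ± 0.0650 was 0.07 ± 0.0823 without cKO replicate 2 and 0.03 ± 0.0509 for the 3 cKO males against all WT libraries with no sex term. The peroxidase gene Prdx6 gave 0.02 (-0.08 to 0.13). The cytochrome P450 genes Cyp4f14 and Cyp4f15, whose products oxidise fatty acids and eicosanoids, were low, at 116 to 134 and 77.4 to 99.4 normalized counts in cKO and 89.4 to 125.8 and 65.3 to 101 in WT. Their intervals, -0.15 to 0.49 and -0.33 to 0.42, were among the widest of the set, and reads of related genes of this cluster may be shared between them.

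The metallothioneins bind zinc and copper and are induced by metals and glucocorticoids, except Mt3, which is typical of brain and shows little induction. Mt2 was at 1113, 1845, 1132 and 958 normalized counts in cKO, against 811, 973, 1357, 715 and 711 in WT. Mt1 was at 1620, 2306, 1635 and 1439.9 in cKO, against 1474, 1565, 1768, 1352 and 1247 in WT. Mt3 was at 4436, 5172, 4615 and 4444 in cKO, against 4609, 5140, 4897, 4540 and 4455 in WT. For Mt1 and Mt2 the libraries fell in the same order except that cKO replicate 4 and WT replicate 1 changed places, with cKO replicate 2 highest, WT replicate 3 next and WT replicate 5 lowest. Mt3 was also highest in cKO replicate 2, with WT replicates 2 and 3 next.

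The log2 fold change was 0.72 ± 0.199 for Mt2, 0.38 ± 0.126 for Mt1 and 0.05 ± 0.0558 for Mt3, and none passed (limma adjusted p of 0.186, 0.280 and 0.791). The spread within groups was wide for the first 2, with a within-group SD on the log2 scale of 0.399 for Mt2 and 0.241 for Mt1, against 0.0939 for Mt3 and a median of 0.107 over all genes tested. Without cKO replicate 2 the log2 fold changes were 0.39 ± 0.267 for Mt2 and 0.08 ± 0.148 for Mt1, and against all WT libraries with no sex term they were 0.27 ± 0.166 and 0.09 ± 0.0905. Of 18 further zinc handling genes, 0 passed and 2 had an unadjusted limma p under 0.05, beside 0.346% and 11.3% of all genes tested. Both of the 2 had values below 0. They were the zinc importer genes Slc39a10, at 5096 ± 196 in cKO and 5641 ± 138 in WT (SD, n = 4 and n = 5) with groups that did not overlap, and Slc39a8, at 389 ± 44.1 in cKO and 451 ± 31.6 in WT.

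The promoters of the 3 genes are shown because Mt1 and Mt2 varied together across libraries and Mt3 varied less. Each is the RefSeq window from 250 bases before to 50 after the annotated start, in build GRCm38.p6 and on the plus strand of chromosome 8 (Mt1 chr8:94178839-94179138, Mt2 chr8:94172368-94172667, Mt3 chr8:94152357-94152656). Capitals mark matches on either strand to the core of the metal response element, searched as TGCACNC and TGCGCNC.
Mt1: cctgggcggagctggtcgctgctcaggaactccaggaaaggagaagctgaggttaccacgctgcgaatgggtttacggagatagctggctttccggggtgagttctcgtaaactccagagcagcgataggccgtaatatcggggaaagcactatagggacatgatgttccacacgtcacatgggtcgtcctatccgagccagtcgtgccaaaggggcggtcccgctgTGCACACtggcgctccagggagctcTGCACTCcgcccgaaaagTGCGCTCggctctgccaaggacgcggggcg
Mt2: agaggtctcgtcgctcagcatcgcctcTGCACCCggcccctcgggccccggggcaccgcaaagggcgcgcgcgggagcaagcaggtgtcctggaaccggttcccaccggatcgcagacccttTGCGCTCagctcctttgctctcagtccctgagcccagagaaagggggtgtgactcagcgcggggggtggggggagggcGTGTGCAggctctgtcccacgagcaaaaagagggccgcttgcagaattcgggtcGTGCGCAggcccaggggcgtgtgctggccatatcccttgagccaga
Mt3: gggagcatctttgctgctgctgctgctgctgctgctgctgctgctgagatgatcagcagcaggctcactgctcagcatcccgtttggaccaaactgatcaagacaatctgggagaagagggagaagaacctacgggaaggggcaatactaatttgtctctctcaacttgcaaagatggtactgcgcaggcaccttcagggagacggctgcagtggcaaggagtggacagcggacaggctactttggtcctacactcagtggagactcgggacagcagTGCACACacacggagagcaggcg
The windows hold 3 matches for Mt1, 4 for Mt2 and 1 for Mt3. Of these, 1 for Mt1, 3 for Mt2 and 0 for Mt3 begin before the annotated start, and the rest lie after it. At least 1 match was found in 25.7% and at least 3 in 1.97% of the 32851 promoters in the same table. A match is a description of the letters and not of binding.

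**Figure D3:**
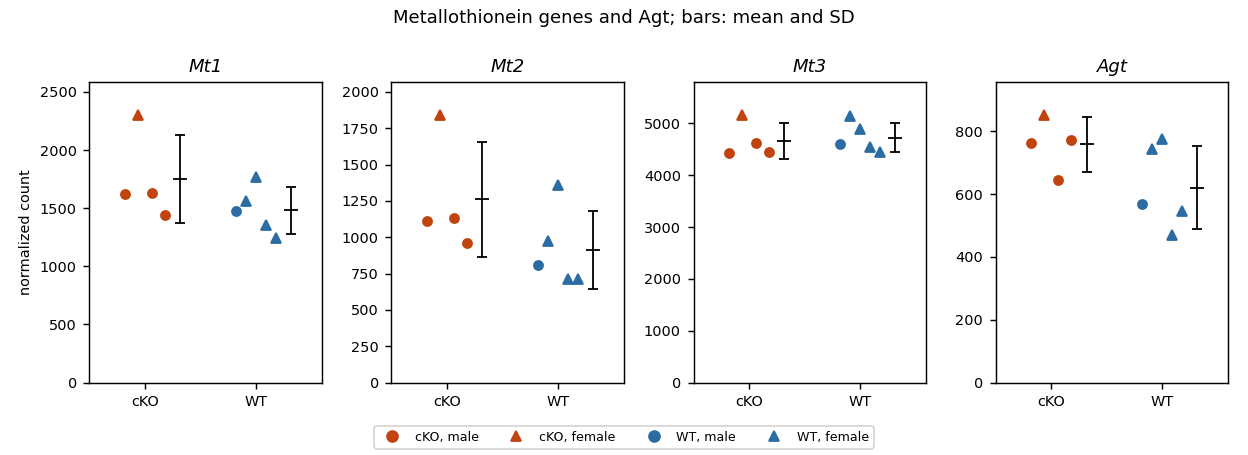
Normalized counts of Mt1, Mt2, Mt3 and Agt in each library (circles, males; triangles, females), with the mean and SD of each group as bars, cKO left of WT. In each of the 4 genes the highest cKO library is replicate 2, the only cKO female, and the groups overlap.

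Of the 6 secreted proteins 0 passed, with 3 at an unadjusted limma p under 0.05 (Cst3, Agt and Clu), beside 11.3% of all genes tested. Their 6 log2 fold changes were above 0 with sex as a term, as were 48.8% of all genes tested, but those of Sparc (-0.04), Htra1 (-0.05) and Sparcl1 (-0.00046) were below 0 without it. Cst3, cystatin C, an inhibitor of cysteine proteases that microglia also make, was at 19338, 24242, 19266 and 18987 normalized counts in cKO and at 18123, 19398, 18552, 17715 and 17501 in WT. cKO replicate 2 lay far above all other libraries, and the 3 cKO males lay below WT replicate 2 and above the other 4 WT libraries. The log2 fold change was 0.25 ± 0.0617 (limma adjusted p = 0.150, DESeq2 adjusted p = 0.0101). It was 0.08 ± 0.0619 without cKO replicate 2 (limma adjusted p = 0.832), and 0.07 ± 0.0376 for the 3 cKO males against all WT libraries with no sex term (limma adjusted p = 0.354). Without WT replicate 1, when the outlying cKO replicate 2 is the only cKO library that sets the difference, it was 0.41 (limma adjusted p = 0.0267). Summed microglial markers were at 8052 to 9023 in cKO and 9220 to 9876 in WT, and their part in the values of Cst3 was not tested.

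Agt, angiotensinogen, was at 762, 854, 644 and 774 normalized counts in cKO and at 568, 743, 775, 469.9 and 546 in WT. The groups overlapped and the WT libraries spread over a wider range than the cKO libraries. Its log2 fold change was 0.41 ± 0.150 (limma adjusted p = 0.325). Adding the meningeal marker level to the model gave 0.20 ± 0.170. Sparc, a matrix protein that endothelial cells and microglia also make, was at 10851, 12200, 11254 and 12384 in cKO and at 11175, 12806, 13304, 11530 and 11373 in WT. Sparcl1, its relative that promotes synapse formation, was at 47275, 47729, 46814 and 46372 in cKO and at 46875, 47747, 48352, 45808 and 46561 in WT. Sparcl1 had the smallest spread within groups of the 35 members, with a log2 fold change of 0.0089 (95% interval -0.08 to 0.09). Sparc gave 0.02 (-0.12 to 0.15).

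Clu, the chaperone and apolipoprotein clusterin, ranged from 12936 to 14752 in cKO and from 12709 to 13515 in WT, with a log2 fold change of 0.09 (95% interval 8.9e-05 to 0.18). Without cKO replicate 2 that of Clu was 0.02 ± 0.0541, and for the 3 cKO males against all WT libraries with no sex term it was -0.0015. The serine protease gene Htra1 ranged from 3924 to 4914 in cKO and from 4141 to 4786 in WT (0.05, -0.05 to 0.16). Levels per kilobase of exon, with exon lengths from GENCODE M21, differed widely between members. They were highest for Sparcl1 (16019 in cKO and 16026 in WT normalized counts per kilobase) and Cst3 (16160 in cKO and 14422 in WT), and lowest for Cyp4f15 (40.5 in cKO and 37.7 in WT). The order of Sparcl1 and Cst3 is not resolved, since it is not stated which exons the authors counted.

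Across the 35 members, cKO replicate 2 held the highest value of the cKO group in 25 and the lowest in 1. Over all genes tested it was highest in 29.3% and lowest in 27.7%. The median member lay 0.13 above its 9-library mean on the log2 scale in cKO replicate 2, against -0.04 to 0.0037 in the 3 cKO males and -0.04 to 0.04 in the 5 WT libraries. In 27 members the log2 fold change was above 0, as in 48.8% of all genes tested. Without a sex term it was above 0 in 19. Without cKO replicate 2 it was above 0 in 18 when sex stayed in the model, which leaves the single WT male as the comparison, and in 16 when the 3 cKO males were set against all 5 WT libraries with no sex term, beside 50.5% of all genes tested. With all libraries 11 members had an unadjusted limma p under 0.05 with values higher in cKO and 2 with values lower, against 4.94% and 6.40% of all genes tested. For the 3 cKO males the counts were 3 and 5 against the single WT male, beside 3.56% and 3.85% of all genes tested, and 5 and 7 against all 5 WT libraries, beside 7.05% and 9.46%. Since that library is the only cKO female, its genotype, its sex and the animal itself cannot be told apart.

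**Figure D4:**
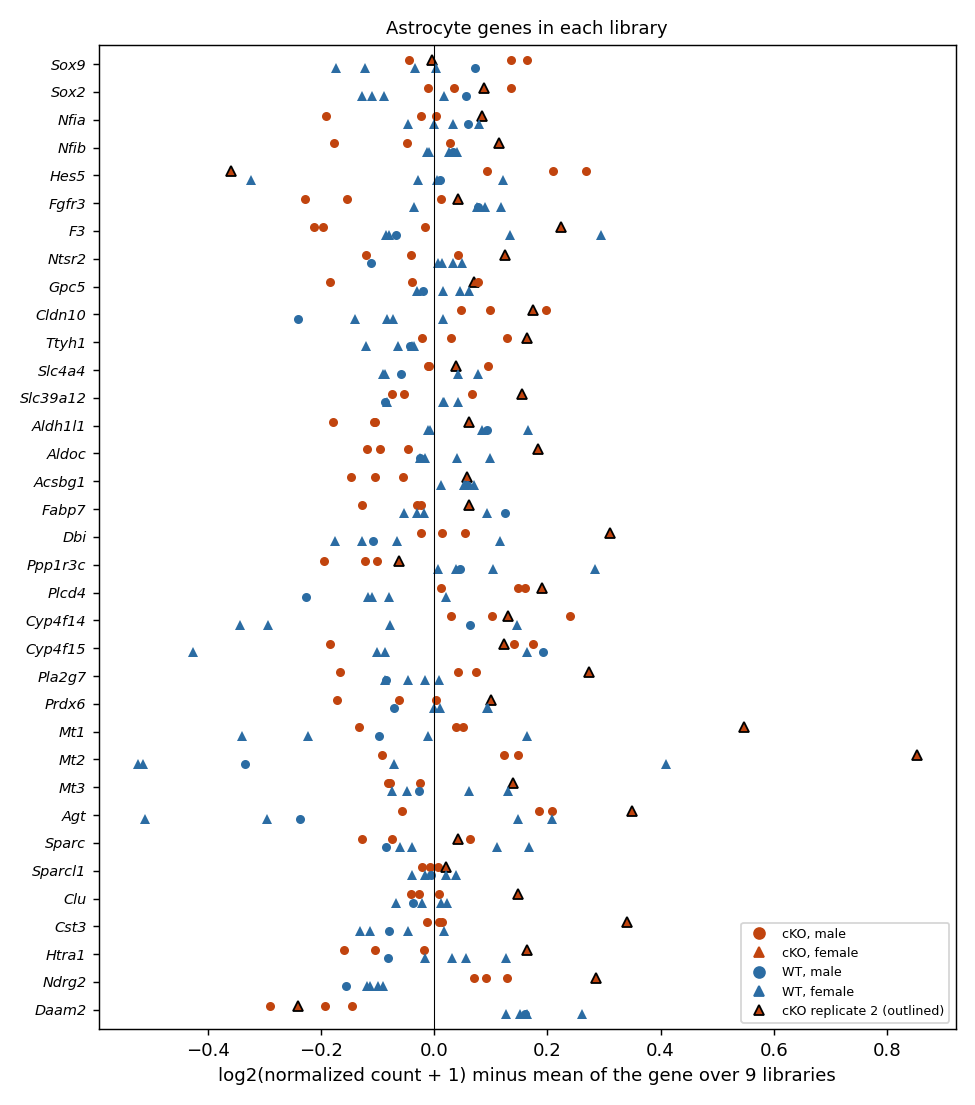
Log2(normalized count + 1) of the 35 astrocyte genes in each library minus the mean of the gene over 9 libraries (circles, males; triangles, females; cKO above WT in each row). cKO replicate 2, outlined, is the highest cKO library in 25 of the 35 genes and the lowest in Hes5.

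Groups did not overlap in 5 members, 3 higher in cKO (Ndrg2, Cldn10 and Ttyh1) and 2 lower (Daam2 and Ppp1r3c), while 6.29% of all genes tested had groups that did not overlap. With males set against females in the same model, 0 of 35 members passed (limma), beside 0.0528% of all genes tested, and 13 had an unadjusted p under 0.05, beside 6.73% of all genes tested. The fitted male over female log2 fold change was below 0 in 28 members and in 49.8% of all genes tested. That term draws on cKO replicate 2 against the 3 cKO males and on WT replicate 1 against the 4 WT females. cKO replicate 2 was the highest cKO library in 25 members. The median member lay -0.04 from its 9-library mean in WT replicate 1, against -0.04 to 0.04 in the 4 WT females. Counts by sex without cKO replicate 2 were not made. The difference of the genotype effect between the sexes passed in 0 of 35 members (limma) and in 0.00587% of all genes tested. An unadjusted p under 0.05 was found in 5 members and in 7.9% of all genes tested, the members being Cst3, Mt1, Fabp7, Aldoc and Hes5.

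Other astrocyte genes outside the 35 moved in both directions. Of 29 tested, 3 rose (Fam107a, S100b and Gfap), 5 fell (Kcnj10, Slc25a18, Aqp4, Glul and Slco1c1) and 21 did not pass. Over all genes tested 0.123% passed higher and 0.223% lower. The median log2 fold change of the 29 was 0.04. Whole hippocampus also holds endothelial and other cells, so changes of these genes, Slco1c1 among them, cannot be assigned to astrocytes alone. Kcnj10, the glial inward rectifier potassium channel, fell by 0.54 on the log2 scale, at 3787 ± 36.9 normalized counts in cKO and 5605 ± 233 in WT (SD, n = 4 and n = 5) (limma adjusted p = 5.54e-05). Slc25a18, a mitochondrial glutamate carrier, was at 891 ± 72.5 in cKO and 1225 ± 84.3 in WT (log2 fold change -0.38 ± 0.0664, limma adjusted p = 0.0321). Of these 8 genes, Kcnj10 passed with each library left out in turn, and the other 7 did not pass without cKO replicate 2, when 3 cKO males are compared with 1 WT male. Their log2 fold changes in that comparison were -0.35 for Aqp4, 0.52 for Fam107a, -0.35 for Glul, -0.44 for Slc25a18, -0.24 for Slco1c1, 0.33 for S100b and 0.24 for Gfap, against -0.35, 0.49, -0.29, -0.38, -0.27, 0.35 and 0.29 with all libraries, with limma adjusted p of 0.0679 to 0.467. In the 3 cKO males against all 5 WT libraries, with no sex term, all 5 that fell passed (limma adjusted p of 8.35e-06 to 0.000997). The 3 that rose did not, with log2 fold changes of 0.31 for Fam107a, 0.15 for S100b and 0.15 for Gfap (limma adjusted p of 0.0706, 0.228 and 0.179). With the meningeal marker level added to the model, 7 of the 8 calls were lost (limma adjusted p of 0.0631 for Aqp4, 0.137 for Slco1c1, 0.168 for Fam107a and Slc25a18, 0.245 for S100b, 0.290 for Glul and 0.346 for Gfap), and Kcnj10 passed (-0.54, limma adjusted p = 0.00268). The 7 log2 fold changes in that fit were -0.31 for Aqp4, -0.27 for Slco1c1, 0.42 for Fam107a, -0.42 for Slc25a18, 0.32 for S100b, -0.29 for Glul and 0.30 for Gfap. The cause of the losses was not tested. Meningeal markers themselves had a median log2 fold change of 0.44. Of the 10, 0 passed and 5 had an unadjusted limma p under 0.05, beside 0.346% and 11.3% of all genes tested. The calls of 6 of the 8, all but Kcnj10 and Aqp4, were also lost without WT replicate 1. Slc25a18 was further lost without cKO replicate 1 or WT replicate 2, Glul without these or cKO replicate 3, and Gfap without any single library except cKO replicate 4. Timp4, a metalloprotease inhibitor, was at 1016 ± 83.9 in cKO and 828 ± 46.2 in WT, and Slc7a10, the glial transporter of small neutral amino acids and D-serine, at 958 ± 57.7 in cKO and 1141 ± 63.4 in WT, and neither passed (limma adjusted p of 0.163 and 0.197).

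**Figure D5:**
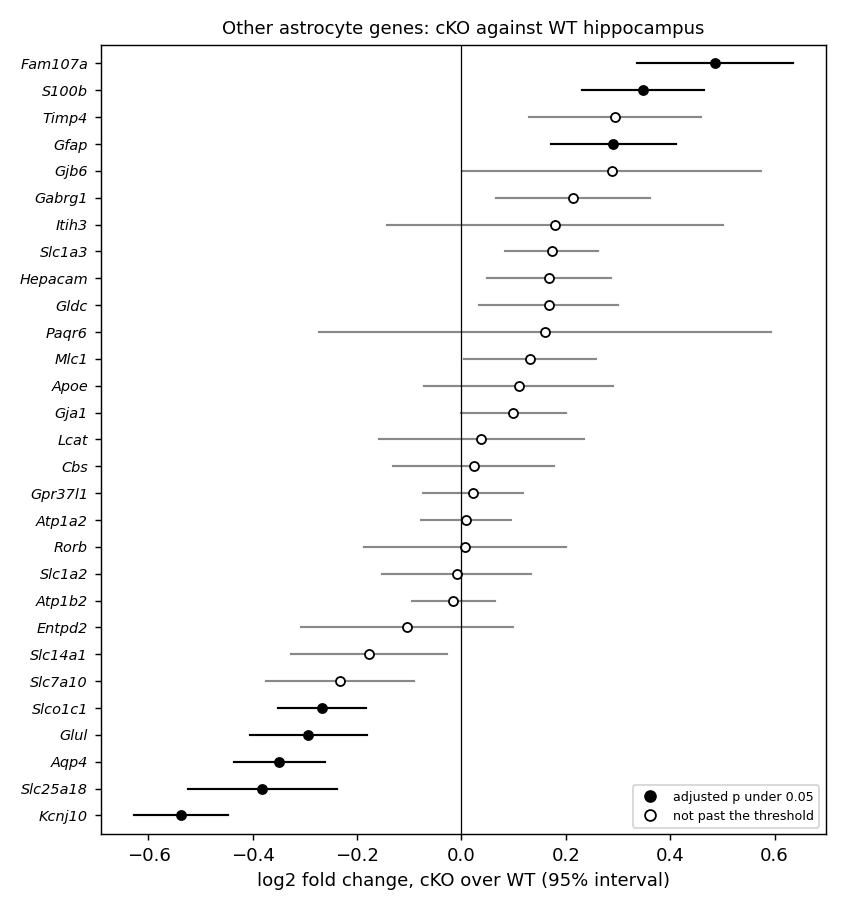
Log2 fold change with 95% interval, cKO over WT, of the 29 tested astrocyte genes outside the 35, sorted by size. Filled dots passed, 3 above 0 and 5 below 0, and Kcnj10 at -0.54 is the lowest.

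Genes of immature glia were read to set the members beside astrocyte maturation. Of 16 tested, 1 fell (Tnc), 15 did not pass and 6 had an unadjusted limma p under 0.05. Over all genes tested 0.223% fell and 11.3% had such a p. Of the 16 fold changes, 8 were above 0 and 8 below 0. Tnc, which encodes the matrix protein tenascin C, was at 2109 ± 156 normalized counts in cKO and 2965 ± 246 in WT (SD, n = 4 and n = 5) (log2 fold change -0.60 ± 0.0524, limma adjusted p = 0.000153) and passed with each library left out. Slc1a3, the glutamate transporter of radial glia and astrocytes, was at 28372 ± 1431 in cKO and 25875 ± 548 in WT with groups that did not overlap (limma adjusted p = 0.134). Ptprz1, a receptor phosphatase of glial progenitors, was at 23269 ± 1064 in cKO and 26438 ± 1757 in WT, and Pax6, a radial glial factor, at 349 ± 26.3 in cKO and 310 ± 22.7 in WT, and neither passed (limma adjusted p of 0.161 and 0.256).

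Summed markers of other cell types were read beside these values. Neuronal markers summed to 176423 to 179162 in cKO and 184383 to 188838 in WT, and oligodendrocyte precursor markers to 20637 to 21150 in cKO and 22090 to 23455 in WT. The microglial sums above and these 2 sums were lower in all 4 cKO libraries than in all 5 WT libraries. Of the single markers in each of these lists 0 passed (limma), beside 0.346% of all genes tested. Groups did not overlap, with cKO lower, in 3 of 10 neuronal, 2 of 8 oligodendrocyte precursor and 3 of 7 microglial markers, beside 3.72% of all genes tested. The log2 fold change was above 0 in 2, 0 and 1 of them. Endothelial markers summed to 5825 to 6438 in cKO and 6392 to 7268 in WT, mural markers to 10651 to 11996 in cKO and 11950 to 13713 in WT, and ependymal markers to 744 to 1183 in cKO and 715 to 1354 in WT. Myelin markers summed to 21177 to 32455 in cKO and 20864 to 31185 in WT. Their part in the values of the astrocyte genes was not tested.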

How the data were processed

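RNA was extracted from frozen hippocampi and made into stranded libraries at the same time, per the labels' protocols. The submitters' processing notes list GRCm39 and the tools DESeq2 1.41.8, STAR 2.7.10b, cutadapt 4.4 and FastQC 0.12.1. The sources used here do not give the read counter, the annotation release or the strand setting. The authors deposited 1 table of normalized counts (a signal unit, scaled by a size factor for each library and given to 2 decimals). Each library's values are multiples of 1 step, between 0.943 and 1.08, and 100.0% of those above 0 come out whole, to within 0.1 read, once that step is divided out. In cKO replicate 1 and WT replicates 1 and 4 the step is so close to 1 that it shows only at larger values. Coordinates are those of the deposited table, and promoters come from RefSeq on GRCm38.p6, where 30 of 35 members have an entry.

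limma-trend (limma 3.58.1, R 4.3.3) modelled log2(normalized count + 1) on genotype and sex for the 17036 genes averaging 10 or more, with Benjamini-Hochberg adjustment and a threshold of 0.05. Fold changes are on that scale, which understates changes of low genes, and can differ from ratios of group means. Sex and the interaction came from the same data, and single genes also had an exact permutation test. Genes of 6 pathway lists and 9 marker lists were described by counts and medians. Of their 193 entries 1 was not matched, and Etnppl (other astrocyte genes) and Mia (ependymal) were below the filter. The members and lists were chosen with earlier results of these data known. The text names all members, with every library for those that passed, the next 6 by p and the first 3 of each role, a rule that Ppp1r3c was added to after its values were seen. From each pathway list it names those that passed and up to 3 others of smallest p. The alternatives were other pseudocounts and filters, recovered reads under edgeR 4.0.16, DESeq2 1.42.0 or TMM scaling, robust limma, no sex term, each sex alone, a meningeal covariate, WT replicates 2 and 5 left out, each library left out and, added later, the 3 cKO males against all WT libraries with no sex term. The code of the model was checked on simulated counts with planted changes, drawn without a sex effect. How often it would find changes as small as those of Ndrg2 and Daam2 is not reported here. Figures were drawn with matplotlib 3.10.9 and tables made with numpy 2.4.6 and pandas 2.3.3 (Python 3.11.15). Replicates are separately labelled samples numbered in record order. The labels do not name litters, so the spread behind each p-value is that of these samples alone and may be technical in part.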

Additional observations from a re-analysis of the deposited data

Results flagged for a closer look

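A single library lay far from the others of its group in 6 of 124 groups of 4 or 5 libraries examined, and chance flags about 1 group in 20. Cst3 was at 24242 normalized counts in cKO replicate 2, against 18987 to 19338 in the other 3 cKO libraries. Cyp4f15 was at 77.4 in cKO replicate 3, against 96.0 to 99.4 in the others, and Timp4 at 891 in the same library, against 1048 to 1068. Fgfr3 was at 2844 in WT replicate 4, with the other WT libraries at 3074 to 3165. Ntsr2 was at 2037 in WT replicate 1, with the others at 2210 to 2278. Daam2 was at 2960 in WT replicate 5, with the others at 2696 to 2769.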

How the results depend on the processing

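The counts of members that passed, 1 higher and 1 lower, did not change with pseudocounts of 0.5 and 5, both filters, TMM scaling, robust limma, edgeR, no sex term, the meningeal covariate, or WT replicates 2 and 5 left out. With DESeq2 on recovered reads 5 members were higher (Ndrg2, Cldn10, Dbi, Plcd4 and Cst3) and 1 was lower. In females only 1 was higher and 0 lower, and in males only 0 and 0. With 1 library left out the counts ran from 0 to 2 higher and from 0 to 1 lower. Both calls were lost without cKO replicate 2, which leaves 1 WT male as the comparison, and Cst3 joined Ndrg2 without WT replicate 1, which leaves cKO replicate 2 alone in its arm. With the 3 cKO males against all WT libraries and no sex term, chosen after seeing the data, 1 member was higher (Ndrg2) and 2 were lower (Daam2 and Acsbg1), among 300 genes called. The genes called among all tested, 59, numbered 199 with DESeq2, 15 without WT replicates 2 and 5, 8 with the meningeal covariate, 216 without the sex term, 3 in males only, 11 in females only, and 10 to 65 with 1 library left out (with cKO replicate 2 left out 10, WT replicate 1 21, cKO replicate 1 28, WT replicate 2 29, WT replicate 5 30). The cause was not tested, beyond the fewer libraries in the fits that leave some out. Ndrg2 kept its direction under all 23 alternatives (0.21 to 0.39) and so did Daam2 (-0.43 to -0.37). Among the 33 other members the sign changed under at least 1 alternative in 19, in 67 of 805 values over the 35 members, none of them a call. The sexes apart leave 1 cKO female or 1 WT male, each assumed to vary like the other group, and give the same fold changes as leaving out the other sex's lone library. Low genes such as Cyp4f15 are limited by depth. No paired analysis was possible because the labels name no litters or pairs. The titles number the samples without pairing them, and the replicate numbers used here follow the order of the records.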
